A study of Rattus norvegicus with 16 samples.

Results

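The 9 genes listed here, of methionine and cysteine metabolism, were followed by symbol in liver RNAseq of male obese Zucker rats: Mat1a, Mat2a, Gnmt, Ahcy, Bhmt, Cbs, Cth, Cdo1 and Csad. They were chosen as enzymes of the pathway, because soy protein holds less methionine than casein, and with earlier results of these data known. Of these 9 symbols, 7 had a row among the 9645 rows of the table, and all 7 were among the 8004 genes that passed the filter on low values. Cth, which makes cysteine from cystathionine, and Csad, which makes the precursor of taurine, were not analysed here. The rats were bought at 6 weeks of age, acclimated for 1 week and fed a casein (CAS) or a soy protein isolate (SPI) diet for 16 weeks. There were 8 rats and 8 libraries per diet, named by diet and rat number (CAS 3, SPI 3), each from total RNA of 1 whole liver sample. Every animal was an obese male of a strain that lacks a working leptin receptor, so no lean group enters these comparisons, and the soy protein was supplied with its isoflavones. The libraries held 17602306 to 21632979 reads on CAS and 14901365 to 21517766 on SPI, recovered from normalized counts. Albumin (Alb), the defining product of hepatocytes, was the most abundant gene, at 2790900 to 4815300 normalized counts on CAS and 3305840 to 5251520 on SPI.

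The methionine cycle begins when methionine adenosyltransferase joins methionine to ATP and forms S-adenosylmethionine (SAM), the methyl donor of the cell. Methyltransferases use SAM and leave S-adenosylhomocysteine, which Ahcy splits into adenosine and homocysteine. Homocysteine is then methylated back to methionine, in liver partly with betaine as the donor through Bhmt. Otherwise it is joined to serine by Cbs and passed through transsulfuration to cysteine. Cysteine that is not used for protein or glutathione is oxidized by Cdo1, the first step toward taurine and sulfate. Liver is the main site of this traffic.

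Among the 7 genes measured, Ahcy and Cdo1 stood higher in SPI-fed rats, while the mean of Bhmt was slightly lower. On the normalized counts as deposited, Ahcy differed between the diets by 0.59 (standard error 0.15) and Cdo1 by 0.45 (standard error 0.10) in log2 units, with limma's adjusted p at 0.0274 and 0.0116. After quantile normalization, the scaling named in the study's methods and used here as the main one, neither passed, and Bhmt was called lower at -0.36 (standard error 0.10, adjusted p = 0.0323 from limma). Quantile normalization gives genes of the same rank the same value in each library, so Alb, first in rank everywhere, had a log2 fold change of 0 after it and 0.30 before it. By mean count, which is not per length, Bhmt was ranked 38, Mat1a 58, Ahcy 113, Cdo1 161, Cbs 358, Gnmt 1058 and Mat2a 2560 of 8004. For the 100 genes with the highest counts, the median log2 difference was -0.02 after quantile normalization and 0.18 as deposited. The 2 scales differed little for Gnmt and Mat2a and more for the others. Each member is therefore given on both scales. Counts of different genes depend on transcript length, so levels are compared between diets only. In whole liver, fewer cells of a type and less RNA per cell cannot be told apart.

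**Figure D1:**
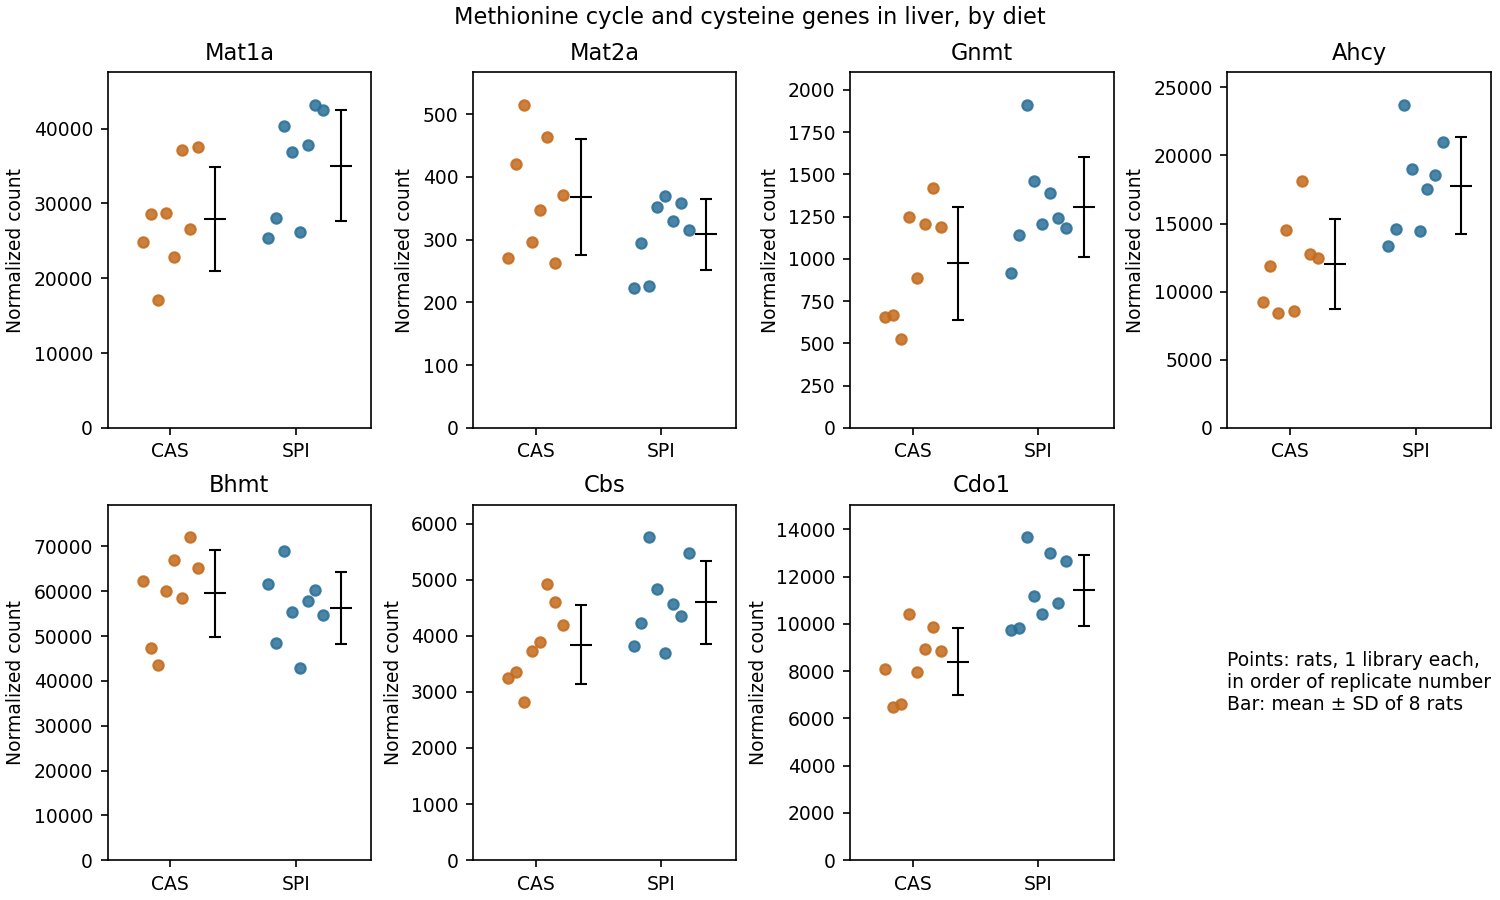
Normalized counts as deposited (vertical axis, from 0) of the 7 measured genes in the 8 CAS and 8 SPI livers, 1 point per rat, with the mean ± SD of each diet as a bar. The Ahcy and Cdo1 points of all 8 SPI-fed rats lie above the CAS median, and the diets overlap in every gene shown.

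Start sites were looked at for the genes whose difference was called on either scale, and for Gnmt, because they differ in kind. The 250 bases before the start of Ahcy, Gnmt and Bhmt are shown, 5′ to 3′ on the strand of the gene, from RefSeq (build GRCr8). They lie at chr3:164044563-164044812 (minus strand), chr9:21752032-21752281 (plus strand) and chr2:26614430-26614679 (minus strand). Capitals mark exact matches, on either strand, to the motifs found: GGGCGG (the GC box), CCAAT and TATAAA (the TATA box).
Ahcy: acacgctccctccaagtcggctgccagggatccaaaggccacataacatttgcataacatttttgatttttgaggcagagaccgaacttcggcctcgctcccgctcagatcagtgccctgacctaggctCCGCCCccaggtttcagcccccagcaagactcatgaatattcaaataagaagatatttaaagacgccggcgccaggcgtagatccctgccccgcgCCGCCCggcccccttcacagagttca
Gnmt: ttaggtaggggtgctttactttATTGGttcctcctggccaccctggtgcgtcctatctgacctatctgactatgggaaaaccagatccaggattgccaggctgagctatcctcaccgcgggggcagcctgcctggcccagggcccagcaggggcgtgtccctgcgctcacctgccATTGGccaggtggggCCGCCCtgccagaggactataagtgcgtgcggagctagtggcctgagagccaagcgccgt
Bhmt: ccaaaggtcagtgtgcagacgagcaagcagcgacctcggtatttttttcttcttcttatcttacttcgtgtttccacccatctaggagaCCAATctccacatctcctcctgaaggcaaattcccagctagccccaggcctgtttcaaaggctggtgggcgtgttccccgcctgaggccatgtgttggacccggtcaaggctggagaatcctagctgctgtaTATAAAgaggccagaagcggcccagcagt
The Bhmt window held TATAAA beginning 29 bases before the start, and the Ahcy window held GGGCGG or its complement at 121 and 26 bases before it. TATAAA occurred in 12.9% of 33469 windows of this length, GGGCGG in 30.5% and CCAAT in 34%. The ATF4 and CEBP composite TGATGNAA (3.4% of windows), the antioxidant response core TGACNNNGC (10.1%) and the E-box CACGTG (5.59%) had no match in the windows of the 6 members that matched by symbol, Ahcy, Gnmt, Bhmt, Mat1a, Mat2a and Cbs. Cdo1 was not among the windows. These matches are descriptions of letters only.

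Synthesis of the methyl donor was measured through 2 genes. Mat1a, the form of adult hepatocytes, was 17048 to 37514 normalized counts on CAS (median 27586) and 25348 to 43220 on SPI (median 37342). The diets overlapped, with 4 of 8 SPI-fed rats above the highest CAS-fed rat and 3 CAS-fed rats below the lowest SPI-fed one. Its log2 fold change was 0.10 (95% confidence interval -0.22 to 0.43, adjusted p = 0.770 from limma) after quantile normalization and 0.34 (0.01 to 0.66, adjusted p = 0.230 from limma) as deposited. Mat2a, the form found in most other tissues and in dividing liver cells, was 262 to 515 normalized counts on CAS (median 359) and 224 to 369 on SPI (median 322). Of the SPI-fed rats 7 of 8 lay below the CAS median. The log2 fold change of Mat2a was -0.23 (95% confidence interval -0.55 to 0.08, adjusted p = 0.429 from limma), and it was -0.24 (adjusted p = 0.404 from limma) as deposited, so neither form passed the test on either scale.

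The ratio of the 2 forms within a library does not move with the size factor of that library. On the log2 scale, Mat1a over Mat2a was 6.24 ± 0.54 (SD, n = 8) with casein and 6.82 ± 0.39 (SD, n = 8) with soy, a difference of 0.58 (standard error 0.23), given without a test. It ran from 5.05 to 6.66 on CAS (median 6.42) and from 6.15 to 7.48 on SPI (median 6.83), and 6 of 8 SPI-fed rats lay above the highest CAS-fed rat. The lowest value belonged to CAS 3, which had both the lowest Mat1a and the highest Mat2a of the 16 livers. Without CAS 3 the difference was 0.41, and taken from the quantile-normalized values of all 16 it was 0.34. The ratio was thus higher on SPI, with overlap of the diets, and it joins the differences of the 2 genes, which had opposite signs.

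Use of SAM was represented by Gnmt, glycine N-methyltransferase, which methylates glycine when SAM is plentiful and is an abundant enzyme of hepatocytes. Its normalized count was 525 to 1417 on CAS (median 1035) and 915 to 1912 on SPI (median 1224). Gnmt varied most of the 7 genes among CAS-fed rats, with a coefficient of variation of 34.2% against 22.5% on SPI, and 4 CAS-fed rats (CAS 1, CAS 2, CAS 3 and CAS 5) lay below every SPI-fed rat. The log2 fold change was 0.44 (95% confidence interval 0.03 to 0.86, adjusted p = 0.233 from limma) after quantile normalization and 0.48 (0.06 to 0.89, adjusted p = 0.182 from limma) as deposited. Gnmt therefore did not pass the adjusted threshold on either scale, though it had an unadjusted p of 0.0383 and a fold above 1.3, the thresholds named in the study's methods. By those thresholds Gnmt was the member that passed as higher after quantile normalization, where 5.97% of all genes passed as higher and 6.75% as lower. As deposited Gnmt, Ahcy and Cdo1 passed as higher, where 5.58% of all genes passed as higher and 7.9% as lower, and no member passed as lower on either scale. The log2 ratio of Gnmt over Mat1a was -4.88 ± 0.39 (SD, n = 8) on CAS and -4.74 ± 0.28 (SD, n = 8) on SPI, a difference of 0.14 (standard error 0.17), smaller than the spread within a diet. The difference was 0.34 when taken from the quantile-normalized values, 0.08 with numbers 2 and 8 left out, and 0.06, 0.09 and 0.23 with CAS 2, CAS 1 or CAS 7 left out.

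Ahcy, S-adenosylhomocysteine hydrolase, removes the product that would otherwise inhibit methyltransferases. It was 8445 to 18099 normalized counts on CAS (median 12189) and 13355 to 23735 on SPI (median 18051), a mean ratio of 1.48. All 8 SPI-fed rats lay above the CAS median, 4 of them above the highest CAS-fed rat (CAS 6), and 6 CAS-fed rats lay below the lowest SPI-fed one. After quantile normalization the log2 fold change was 0.37 (95% confidence interval 0.08 to 0.66, adjusted p = 0.142 from limma). As deposited it was 0.59 (95% confidence interval 0.27 to 0.91, adjusted p = 0.0274 from limma), and edgeR (0.57, adjusted p = 0.0292) and DESeq2 (0.57, adjusted p = 0.00716) on the recovered reads also called it higher. Of the 2 calls on the deposited scale, that of Ahcy was the less steady. Among 16 fits that left out 1 library, with an adjusted p of 0.00486 to 0.0587 over all 16 from limma, it ended in 7. Those were the fits without 1 of CAS 1, 2, 3 and 5 or SPI 3, 4 and 8. Leaving out numbers 2 and 8 together also ended the call of Ahcy (adjusted p = 0.128 from limma).

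Homocysteine is used by 2 routes, remethylation and transsulfuration, of which the members measured were Bhmt and Cbs. Mtr, a remethylation gene that is no member, was at -0.26 after quantile normalization (adjusted p = 0.240 from limma). As deposited Mtr was at -0.28 (adjusted p = 0.209 from limma). Bhmt, betaine-homocysteine methyltransferase, was 43508 to 72150 normalized counts on CAS (median 61261) and 42813 to 68892 on SPI (median 56627). The 2 ranges nearly coincided. Of the SPI-fed rats 6 of 8 lay below the CAS median. The log2 fold change was -0.36 (95% confidence interval -0.56 to -0.16, adjusted p = 0.0323 from limma) after quantile normalization and -0.08 (95% confidence interval -0.30 to 0.15, adjusted p = 0.746 from limma) as deposited. After quantile normalization 2.9% of all genes were called lower and 1.97% higher, and of the members 1 of 7, Bhmt, was called lower and none higher. At an unadjusted p under 0.05 from limma 3 members were higher and 1 lower, where 706 of all 8004 genes were higher and 801 lower. By edgeR and by DESeq2, 2 members were called higher. The call of Bhmt ended in 7 of 16 fits that left out 1 library (without 1 of CAS 1, 5 and 8 or SPI 2, 4, 5 and 8). Over all 16 fits the adjusted p was 0.00894 to 0.0727 from limma. The call of Bhmt also ended with the replicate number as a block (adjusted p = 0.0712 from limma) and without the libraries numbered 2 and 8 (adjusted p = 0.171 from limma).

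Bhmt2, a neighbouring gene of the same family that methylates homocysteine with S-methylmethionine, was likewise called lower after quantile normalization and not as deposited. It was 11943 to 13576 normalized counts on CAS (median 12809) and 11042 to 12367 on SPI (median 11774), and all 8 SPI-fed rats lay below the CAS median. Its log2 fold change was -0.32 (standard error 0.06, adjusted p = 0.00253 from limma) after quantile normalization and -0.13 (standard error 0.06, adjusted p = 0.253 from limma) as deposited. After quantile normalization the call held in each of 16 fits that left out 1 library. It also held under the replicate block (adjusted p = 0.0214 from limma) and without numbers 2 and 8 (adjusted p = 0.0336 from limma). With library totals Bhmt2 was at -0.28 (adjusted p = 0.00519 from limma), while upper-quartile scaling, edgeR and DESeq2 gave no call. The 2 genes are close copies whose reads may have been split in counting, so their levels are not fully separate measurements.

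Cbs, cystathionine beta-synthase, commits homocysteine to transsulfuration. Its normalized count was 2822 to 4923 on CAS (median 3811) and 3697 to 5765 on SPI (median 4459), with 7 of 8 SPI-fed rats above the CAS median. The log2 fold change was 0.17 (95% confidence interval -0.04 to 0.39, adjusted p = 0.390 from limma) after quantile normalization and 0.26 (0.03 to 0.50, adjusted p = 0.199 from limma) as deposited, so Cbs passed on neither scale. The ratio of the 2 transcripts joins their differences, which had opposite signs, and does not measure the flux through the 2 routes. On the log2 scale Bhmt over Cbs was 3.96 ± 0.20 (SD, n = 8) with casein and 3.62 ± 0.21 (SD, n = 8) with soy, a difference of -0.34 (standard error 0.10), given without a test, and of -0.53 when taken from the quantile-normalized values. The ratio ran from 3.57 to 4.26 on CAS (median 3.97) and from 3.32 to 4.01 on SPI (median 3.56). Of the SPI-fed rats 7 of 8 lay below the CAS median and 4 below the lowest CAS-fed rat, while SPI 1, at 4.01, lay among the CAS-fed rats and CAS 6, at 3.57, among the SPI-fed ones.

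**Figure D2:**
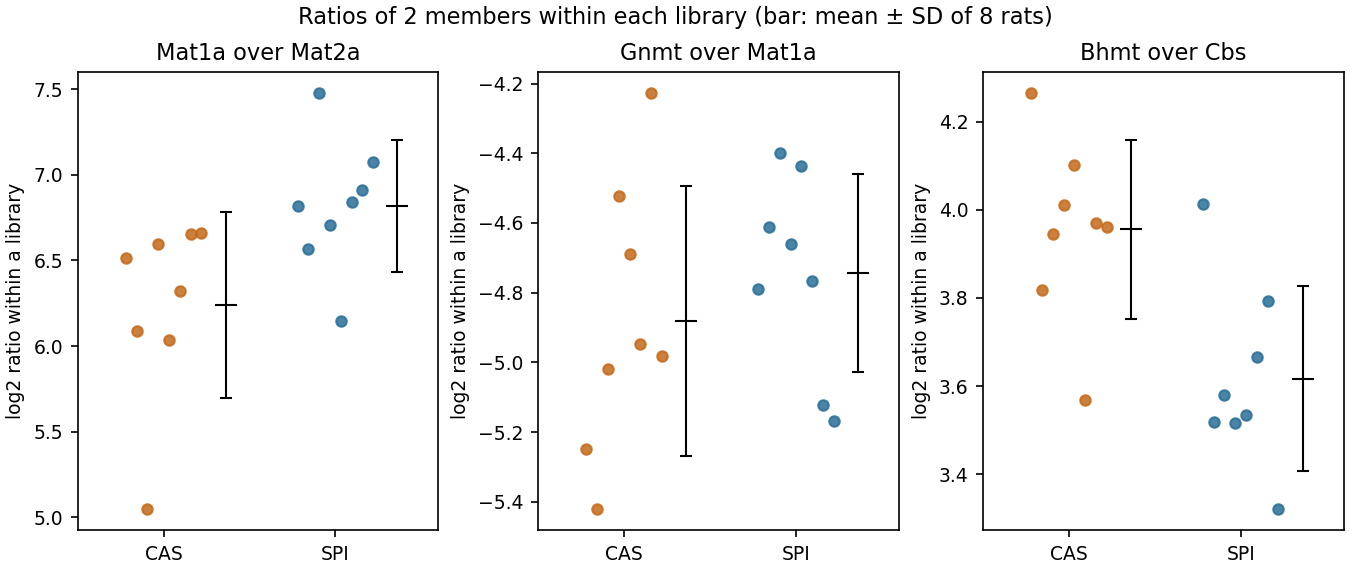
Log2 ratios of normalized counts of 2 genes within each library, 1 point per rat, with the mean ± SD of the 8 rats of each diet. Mat1a over Mat2a was higher and Bhmt over Cbs lower in most SPI livers, with overlap in both, and Gnmt over Mat1a overlapped widely.

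Cdo1, cysteine dioxygenase, oxidizes cysteine, and its protein is known to be degraded when cysteine is scarce. Its normalized count was 6470 to 10432 on CAS (median 8471) and 9740 to 13686 on SPI (median 11019), a mean ratio of 1.36. All 8 SPI-fed rats lay above the CAS median and 5 above the highest CAS-fed rat. The log2 fold change was 0.27 (95% confidence interval 0.10 to 0.44, adjusted p = 0.0571 from limma) after quantile normalization. As deposited it was 0.45 (0.24 to 0.67, adjusted p = 0.0116 from limma), with edgeR at 0.45 (adjusted p = 0.0160) and DESeq2 at 0.44 (adjusted p = 0.00303). On the deposited scale the call of Cdo1 held in each of the 16 fits that left out 1 library (adjusted p of 0.00472 to 0.0295 from limma), but ended without the libraries numbered 2 and 8 (adjusted p = 0.0718 from limma).

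As deposited, 2 of the 7 members, Ahcy and Cdo1, were called higher and none lower, where 2.69% of all genes tested were called higher and 2.82% lower. At an unadjusted p under 0.05 from limma 5 members were higher and none lower, where 762 of all 8004 genes were higher and 829 lower. With edgeR (2.57% of all genes called higher and 3.01% lower), DESeq2 (3.92% and 4.6%) and upper-quartile scaling (3.2% and 2.6%), 2 members were also called higher and none lower. The median log2 fold change of the 7 was 0.34 as deposited, beside 0.18 for the 100 most abundant genes and 0.00 for all genes, and 0.17 after quantile normalization, beside -0.02 and 0.01. Scaled to equal library totals, which moved the median of all genes to -0.12 and called 1.4% of them higher and 8.31% lower, Ahcy (0.44, adjusted p = 0.0477 from limma) and Cdo1 (0.30, adjusted p = 0.0362 from limma) were again called higher, and Bhmt was at -0.23 (adjusted p = 0.120 from limma). The signs of all 7 were the same on each of these scales. In none of the 7 did the diets separate fully, where 0.35% of all genes lay fully higher and 0.55% fully lower on SPI.

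**Figure D3:**
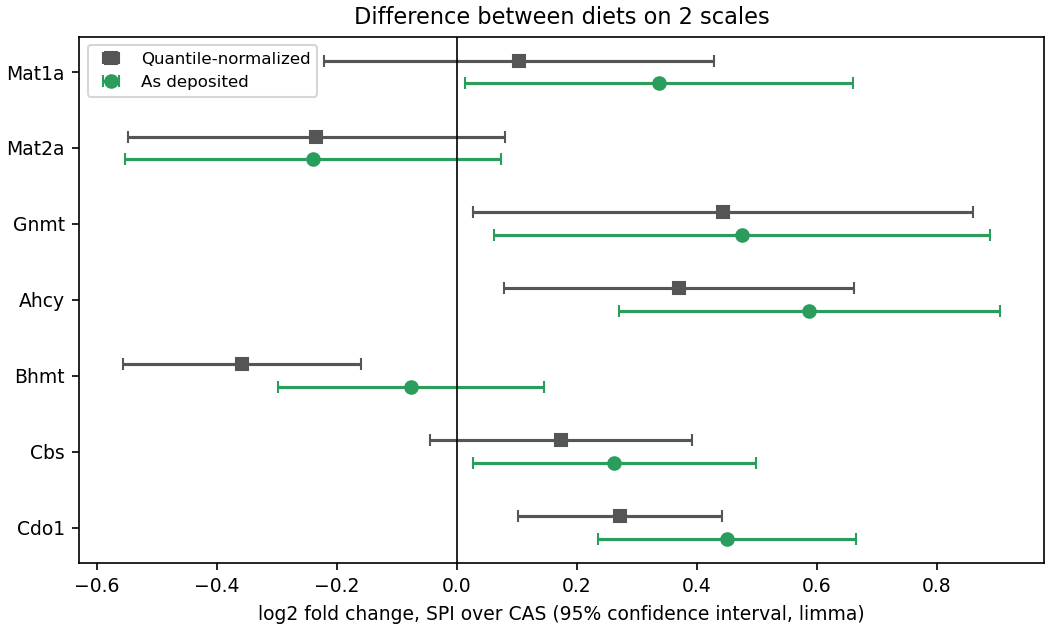
Log2 fold change of SPI over CAS (horizontal axis) with its 95% confidence interval from limma, after quantile normalization (squares) and as deposited (circles). The interval of Bhmt lies below 0 only after quantile normalization, while those of Ahcy, Cdo1 and Gnmt lie above 0 on both scales.

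The 7 genes also varied within a diet. The coefficient of variation was 16.3% (Bhmt) to 34.2% (Gnmt) among CAS-fed rats and 13.2% (Cdo1) to 22.5% (Gnmt) among SPI-fed rats, and it was larger on CAS for each gene. CAS 3 had the lowest Mat1a (17048), Gnmt (525), Ahcy (8445) and Cbs (2822) of all 16 livers, as well as the highest Mat2a (515). SPI 3 had the highest Gnmt (1912), Ahcy (23735), Cbs (5765) and Cdo1 (13686). The acute phase gene Lbp, lipopolysaccharide binding protein, differed among the same CAS livers. Its normalized count was 2476 to 9302 on CAS (median 5784) and 1942 to 3387 on SPI (median 2218), lower on SPI by limma (-1.23 on the log2 scale, adjusted p = 0.0429). CAS 3 had 8319 counts of Lbp, CAS 2, the liver with the lowest Cdo1 (6470), had 8486, and CAS 5 (Ahcy 8604) had 9302. CAS 7, with the highest Gnmt of the CAS-fed rats (1417), had 2476, CAS 6, with their highest Ahcy (18099), had 2572, and CAS 4, with their highest Cdo1 (10432), had 2494. CAS 1 and CAS 8 had 5346 and 6221, with Gnmt at 654 and 1187 and Ahcy at 9215 and 12493. These livers were named for extreme values of different genes, and other values did not run opposite to Lbp. CAS 8 had the highest Mat1a of the CAS-fed rats (37514), and CAS 7 lay below the CAS median of Mat1a (26554). CAS 5 lay above the CAS median of Bhmt (66909) and of Cbs (3895). Among the SPI-fed rats, SPI 3, with the highest Gnmt, Ahcy, Cbs and Cdo1, also had the highest Lbp (3387). The part of the acute phase genes in the differences of Gnmt, Ahcy and Cdo1 was not tested. Of the acute phase list, 11 of 12 genes were tested and 1, Lbp, was called lower and none higher after quantile normalization. As deposited 1 was called lower and 2 higher, and edgeR and DESeq2 each called 2 lower and 2 higher. The 2 higher as deposited were Crp at 0.35 (adjusted p = 0.0289 from limma) and Fga at 0.35 (adjusted p = 0.0442 from limma). After quantile normalization Crp was at 0.10 (adjusted p = 0.582 from limma) and Fga at 0.27 (adjusted p = 0.142 from limma). Lcn2 was at -2.33 after quantile normalization (adjusted p = 0.0731 from limma). The summed normalized count of the list was 816821 to 1122530 on CAS and 854270 to 1221620 on SPI. It says little of Lbp or Lcn2, since Hp alone had a mean of 371516 on CAS and 375330 on SPI.

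**Figure D4:**
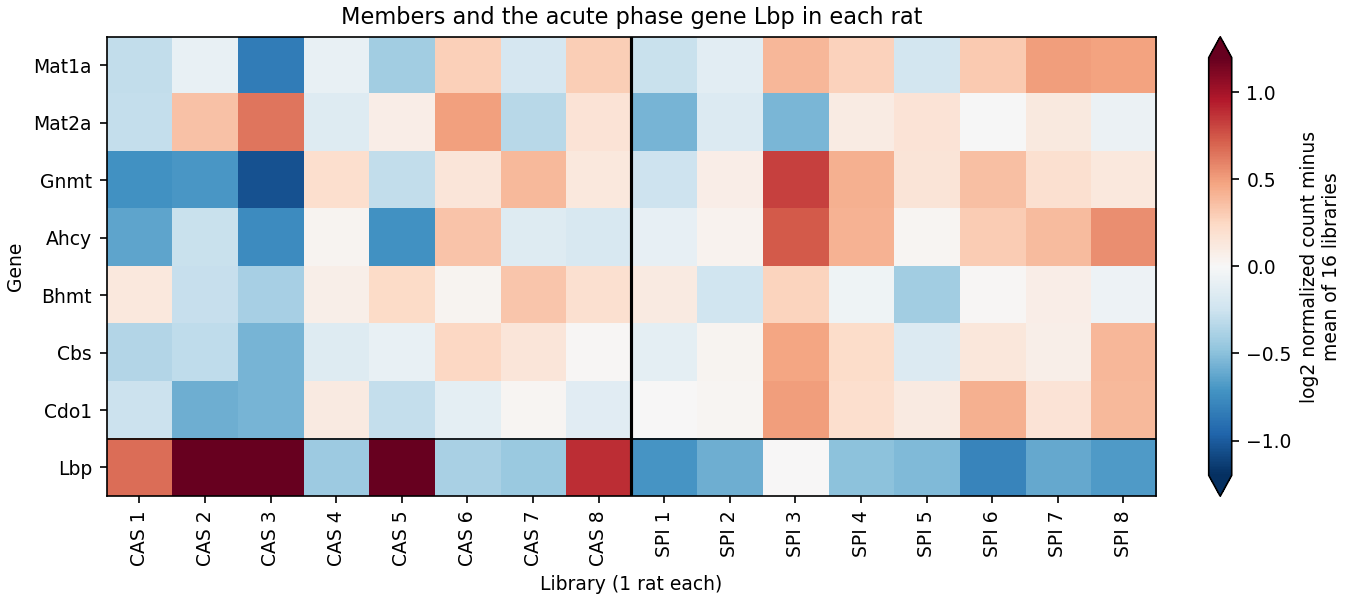
Log2 normalized count of each gene (rows) in each library (columns, 8 CAS then 8 SPI) minus its mean over the 16 libraries, with red for higher and blue for lower, and with colours that saturate beyond the scale for Lbp. CAS 3 is low in Mat1a, Gnmt, Ahcy and Cbs and high in Mat2a and Lbp, while SPI 3 is high in Gnmt, Ahcy, Cbs and Cdo1.

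Markers of other liver cell types gave no call by limma or edgeR. Of 10 markers of Kupffer cells and macrophages, 6 of endothelial cells and 6 of stellate cells and fibroblasts, none was called in either direction after quantile normalization or as deposited by limma. At an unadjusted p under 0.05 after quantile normalization, 2 of the macrophage markers and 1 of the endothelial markers were higher and 4 of the stellate markers were lower. Of all 8004 genes 706 were higher and 801 lower at that threshold. DESeq2 called 1 macrophage marker higher while edgeR called none. The summed normalized count was 6425 to 9767 on CAS and 5393 to 9252 on SPI for macrophage markers, and 3774 to 5922 and 3192 to 5643 for stellate markers, whose median log2 fold change was -0.78. Bile duct and leukocyte markers each had 1 gene tested, which was not called, and adipocyte and muscle markers had none. Of 5 hepatocyte markers none was called by limma or edgeR, none had an unadjusted p under 0.05 after quantile normalization, and DESeq2 called 1 higher. As deposited 2 of the 5 were higher at an unadjusted p under 0.05, Alb at 0.30 and Fah, an enzyme of tyrosine breakdown, at 0.27, and the median of the 5 was 0.22. Along the lobule, the periportal markers had 1 of 6 called higher (Hal, histidine ammonia lyase, 1.29, adjusted p = 0.00724 from limma) and 1 lower (Arg1, arginase, -0.34, adjusted p = 0.0275 from limma), where Arg1 was at -0.03 as deposited (adjusted p = 0.910 from limma). As deposited, by edgeR and by DESeq2, 2 periportal markers were called higher and none lower, and Hsd17b13, a lipid droplet protein, was at 0.41 (adjusted p = 0.0321 from limma) as deposited. The pericentral markers had 1 of 5 called higher, the cytochrome Cyp1a2, at 1.15 (adjusted p = 0.00138 from limma). The part of cell composition and zonation in the members' differences was not tested.

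The rest of the pathway was read through lists of 139 further genes, of which 94 were tested. After quantile normalization 2 were called higher, 2 lower and 90 neither, against 1.97% and 2.9% of all genes, so these shares were near the background. As deposited 5 were called higher and 1 lower, against 2.69% and 2.82%. At an unadjusted p under 0.05 from limma 14 were higher and 7 lower after quantile normalization, and 19 and 4 as deposited. Of all 8004 genes 706 were higher and 801 lower after quantile normalization, and 762 and 829 as deposited. The median log2 fold change of the 94 genes was 0.07 after quantile normalization and 0.09 as deposited.

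Among 13 genes of SAM use, 2 methyltransferases were called higher and none lower. Tpmt, which methylates thiopurine drugs, stood at 215 ± 34.1 normalized counts (SD, n = 8) on CAS and 292 ± 35.4 (SD, n = 8) on SPI, 0.46 higher on the log2 scale (limma, adjusted p = 0.0314). As3mt, which methylates arsenic, was 538 ± 75.6 (SD, n = 8) and 700 ± 95.5 (SD, n = 8), 0.38 higher on the log2 scale (limma, adjusted p = 0.0369). In both, all 8 SPI-fed rats lay above the CAS median, and the values as deposited (0.44 and 0.38) were called too. These calls ended with the replicate number as a block (adjusted p = 0.0991 for Tpmt and 0.0879 for As3mt from limma) and with scaling to library totals, where Tpmt was at 0.27 (adjusted p = 0.126 from limma) and As3mt at 0.22 (adjusted p = 0.203 from limma). That of As3mt also ended with numbers 2 and 8 left out (adjusted p = 0.143 from limma). Leaving out single libraries ended that of Tpmt in 7 of 16 fits (CAS 3 and 5 and SPI 3 to 7) and that of As3mt in 9 of 16 (CAS 1, 2, 3 and 5 and SPI 2 to 6).

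Of 17 genes of remethylation, betaine and folate, Bhmt2 alone was called after quantile normalization. As deposited Aldh1l2, a mitochondrial enzyme of folate oxidation named here after its value was seen, was called higher at 0.34 (adjusted p = 0.0193 from limma), against 0.20 (adjusted p = 0.164) after quantile normalization. Of 7 genes of cysteine, sulfide and taurine, none was called after quantile normalization (1 higher at an unadjusted p under 0.05 from limma, 2 called higher by edgeR and 3 by DESeq2). As deposited 2 of them were called higher. These were Baat, which joins bile acids to taurine or glycine, at 0.41 (adjusted p = 0.00363 as deposited, and 0.13 with adjusted p = 0.301 after quantile normalization, both from limma), and Kyat3, an aminotransferase, at 0.31 (adjusted p = 0.0333 as deposited and 0.106 after quantile normalization from limma). Baat was 17581 to 23885 normalized counts on CAS and 23637 to 29720 on SPI, so its diets overlapped by a narrow margin.

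Of 12 genes of polyamines and methionine salvage 1, Sat1, was lower. Sat1, which acetylates spermidine and spermine for export or breakdown, was 776 ± 209 normalized counts (SD, n = 8) on CAS and 510 ± 91.2 (SD, n = 8) on SPI. By limma the log2 difference was -0.59 (adjusted p = 0.0187), and -0.58 as deposited (adjusted p = 0.0168). The call held in each of 16 fits that left out 1 library on both scales, and ended without the libraries numbered 2 and 8 (adjusted p = 0.0782 from limma). All 8 SPI-fed rats lay below the CAS median.

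Of 28 listed genes that ATF4 raises when an amino acid is short, 19 had a row and 17 were tested. Asns, Phgdh, Ddit3 and Slc7a11 were not among the 17, so this response was read only in part. Some of the 17 had low counts, such as Atf3 at a mean of 26.4 normalized counts on CAS and 14.3 on SPI. The paper refers to an earlier report for the composition of the diets, so a shortage of methionine on SPI is not established here. Of 17 tested none was called in either direction on either scale by limma, or by edgeR or DESeq2, and 2 were higher at an unadjusted p under 0.05. Their median log2 fold change was -0.12 after quantile normalization and -0.06 as deposited, and the members with the smallest p were Psph, an enzyme of serine synthesis, at 0.40 (adjusted p = 0.146 from limma) and the amino acid transporter Slc7a5 at 1.01 (adjusted p = 0.176 from limma), which was near the filter at a mean of 17.0 normalized counts on CAS and 28.0 on SPI. None of 8 genes of glutathione synthesis and turnover was called by limma, edgeR or DESeq2, and at an unadjusted p under 0.05 from limma 1 was higher and 3 lower after quantile normalization, against 1 higher and none lower as deposited. The lower genes included Gss, glutathione synthetase, at -0.33 (adjusted p = 0.170 from limma) and Gclc, the catalytic subunit of the first step, at -0.20 (adjusted p = 0.220 from limma). Nor was any of 8 amino acid transporters, 4 enzymes of serine, glycine and threonine or 10 genes of pyridoxal phosphate and cobalamin supply called by limma, edgeR or DESeq2, where 1, 1 and 2 were higher at an unadjusted p under 0.05 from limma. The smallest p in each belonged to Slc43a1, a carrier of large neutral amino acids, at 0.55 (adjusted p = 0.0917 from limma), to Gcat at 0.24 (adjusted p = 0.135 from limma) and to Pdxp, a pyridoxal phosphatase, at 1.65 (adjusted p = 0.162 from limma). Pdxp was near the filter, at a mean of 17.8 normalized counts on CAS and 30.9 on SPI. Next by p in the 3 lists was Slc38a3, a glutamine carrier, at 0.21 (adjusted p = 0.453 from limma), for the transporters. For the other lists it was Sds, serine dehydratase, at 1.49 (adjusted p = 0.369) and Cd320, a receptor of the cobalamin carrier, at 0.60 (adjusted p = 0.255), both from limma.

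**Figure D5:**
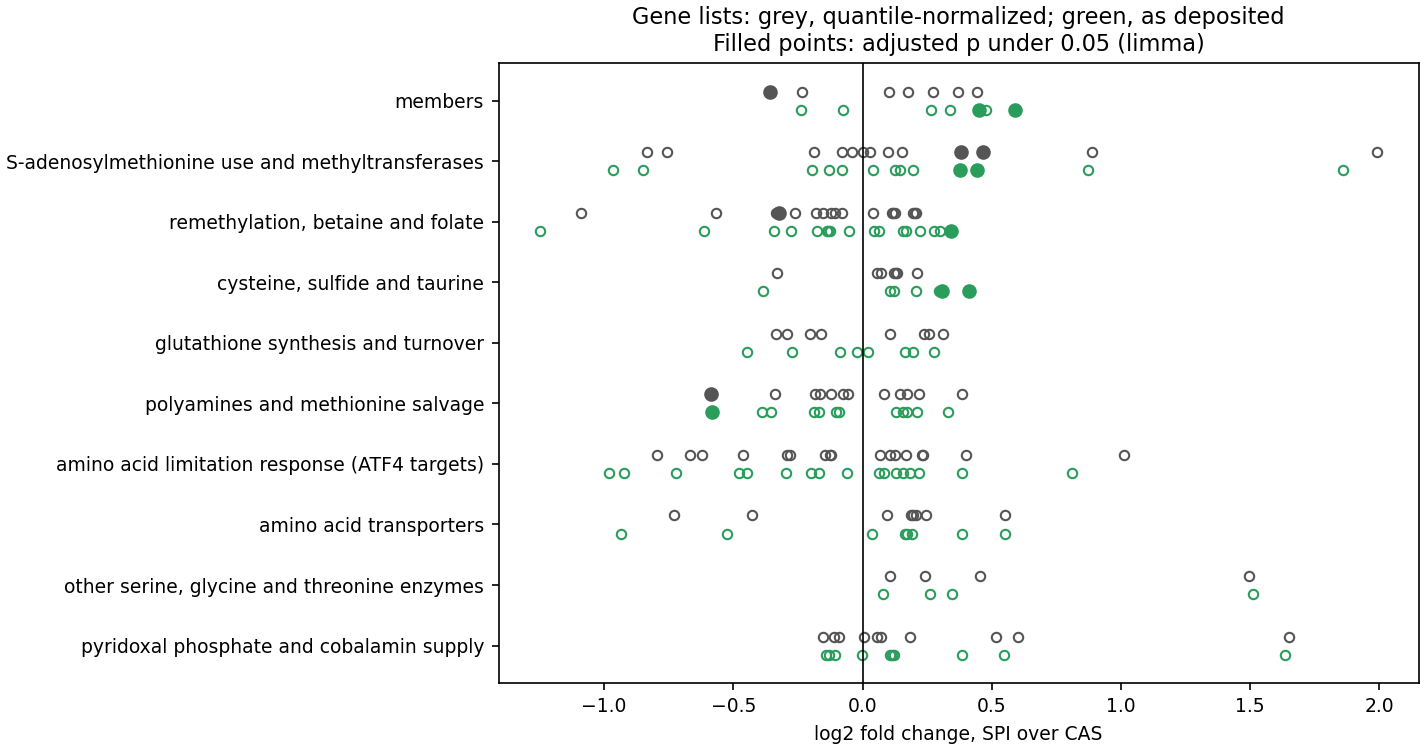
Log2 fold change of SPI over CAS (horizontal axis) for each tested gene of the 10 pathway lists, after quantile normalization (grey) and as deposited (green), with filled points for an adjusted p under 0.05 from limma. Filled points are few in every list, and in the members' row they are Bhmt in grey and Ahcy and Cdo1 in green.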

How the data were processed

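RNA from liver was sequenced in 16 rats, 8 per diet. The deposited signal values come from read counts, which the authors had scaled with a size factor for each library. Each library's values were whole multiples of 1 step (100% within a tolerance of 0.05), and this gave the recovered reads used for edgeR and DESeq2. The other columns hold the authors' own DESeq2 comparison and were not used. The submitters' processing notes name Rnor_6.0, FastQC and DESeq2, and the methods of the paper describe CLC Genomics Workbench, RPM, log2 and quantile normalization. The counting tool is not given in the sources used here. The labels number the libraries within each diet, and p-values set the difference of the diets against the spread between libraries of a diet.

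Genes that reached 10 in 8 or more of the 16 libraries were taken to log2(value + 1), quantile-normalized and tested with limma (trend and robust, two-sided, Benjamini-Hochberg over all 8004 genes). The steps were tested on simulated data. Genes were called at an adjusted p under 0.05. Fold changes are on the log2(value + 1) scale, which understates changes of low genes. Depth bears on genes near the filter, and intervals cover the spread between rats. Alternatives were upper-quartile scaling or none (as deposited), edgeR (quasi-likelihood, TMM), DESeq2, other pseudocounts (0.5 and 8), another filter (50) or none, the replicate number as a block, and libraries left out. Scaling to library totals and left-out libraries on the deposited scale were added after seeing the data. The members and lists were chosen with earlier results of these data known. Named from each list were up to 4 called genes, or the 2 with the smallest p. Libraries of the same number share a lane code in their descriptions (numbers 2 and 7 the same code), but their correlations were -0.095 to 0.0682, with 0 of 8 highest for its own number. A lane holds too few libraries for values within it. Numbers 2 and 8 were left out together because their lane codes are out of sequence. R 4.3.3, limma 3.58.1, edgeR 4.0.16 and DESeq2 1.42.0 were used.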

Additional observations from a re-analysis of the deposited data

Results flagged for a closer look

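There were 2 values that stood far from the other rats of their diet by Dixon's gap test at the 95% level, among 36 sets of 8 rats, where chance gives about 1 in 20. The log2 ratio of Mat1a over Mat2a in CAS 3 was 5.05 against 6.03 in the next liver, a gap of 0.612 of the range of the CAS-fed rats. Lbp in SPI 3 was 3387 normalized counts against 2387 in the next liver, a gap of 0.692 of the range of the SPI-fed rats.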

How the results depend on the processing

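Members called higher went from 0 to 2 and members called lower from 1 to 0 as deposited, with upper-quartile scaling, with edgeR, with DESeq2 and with scaling to library totals. Members called lower also went to 0 under the replicate block, and when numbers 2 and 8 were left out. The block changed no call of another member after quantile normalization, and as deposited Ahcy (adjusted p = 0.0219) and Cdo1 (adjusted p = 0.0249 from limma) kept theirs under it. With single libraries left out the members called ranged from 0 to 1 in each direction. The other pathway genes called higher, 2, became 5 as deposited and with edgeR, 6 with upper-quartile scaling, 7 with DESeq2, 0 with the replicate block, 1 without the numbers 2 and 8, and 1 with library totals (neither Tpmt nor As3mt), with a range of 0 to 3 when single libraries were left out. Those called lower, 2, became 1 as deposited, with upper-quartile scaling, edgeR, DESeq2 and without the numbers 2 and 8, and 5 with library totals, and stayed at 2 with single libraries left out. Over all genes 158 were called higher and 232 lower, against 308 and 361 with DESeq2, 256 and 208 with upper-quartile scaling, 112 and 665 with library totals, 97 and 149 with the block, and 44 and 62 without the numbers 2 and 8, with ranges of 99 to 203 and 132 to 288 when single libraries were left out. The difference of the log2 ratio was -0.39 to -0.29 for Bhmt over Cbs, 0.41 to 0.67 for Mat1a over Mat2a and 0.06 to 0.23 for Gnmt over Mat1a with single libraries left out. No member changed sign under any of these alternatives, pseudocounts and filters included. The cause of these changes was not tested. Cth and Csad, and with them 2 of the 5 planned ratios, were not analysed here.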
